A study of Rattus norvegicus with 61 samples.

Results

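A set of 100 liver transcripts, out of 31196 transcripts in the table, is described here. They were chosen for lying on opposite sides of the median transcript after acetaminophen (APAP) and after methylene dianiline (MDA), each compared with control livers. Each library was scaled to counts per 1000000 (CPM), and the 13482 transcripts whose mean over the 15 livers reached 1 CPM were kept. For each, A was the log2 ratio of the APAP mean to the control mean and M that of the MDA mean to the control mean, both after adding 1 CPM. The median over all kept transcripts was then subtracted from each. Transcripts with A of at least 0.5 and M of at most -0.5, or the reverse, numbered 243, and the 100 with the largest distance between A and M were taken. Of these, 24 were high after APAP and low after MDA (the APAP-high set), and 76 were low after APAP and high after MDA (the MDA-high set).

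The study prepared rat immune cell profiles in order to estimate immune cells from bulk tissue RNA. All donors were male wild-type Sprague-Dawley rats, bought at 6 weeks of age. Livers came from rats given a single gavage after an overnight fast and were collected 24 h later: 5 received vehicle, 0.5% methylcellulose (Ctrl), 5 received APAP at 3 g/kg and 5 received MDA at 300 mg/kg. Untreated rats gave 5 spleens and 5 samples of whole blood cells (WBC), and 6 samples of each of 6 sorted cell types: neutrophils and monocytes from blood, and 4 lymphoid types from spleen (CD4 T, CD8 T, B and NK cells). Each toxicant was given at 1 dose and read at 1 time, so neither a dose nor a time course stands behind any value below. The sorted cells came from untreated rats, and the myeloid types differ from the lymphoid types in tissue of origin as well as in type, which cannot be told apart here.

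APAP is turned by cytochrome P450 enzymes in hepatocytes into a reactive quinone imine that consumes glutathione and binds proteins, and the necrosis it causes lies mainly around the central veins. MDA is known for injuring the epithelium of the bile ducts, with cholestasis and damage around the portal tracts. Both injuries draw leukocytes into the liver, so a bulk liver profile after either agent mixes the response of resident cells with RNA of arriving ones. In such profiles, fewer cells of a type and less RNA per cell cannot be told apart.

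The transcripts carry Ensembl rat transcript identifiers, and 0 of the 31196 could be paired with a gene symbol or a sequence in the reference tables used here. Therefore 4 members are given by identifier, the pair with the largest and the pair with the smallest difference of A minus M, and other members by their rank within their set, rank 1 being the furthest apart. Marker genes of liver or of the sorted cells were not examined for the same reason. Livers held 10484912 to 14146402 estimated counts each. The shallowest library of the series was a neutrophil sample (replicate 5) at 3429971. Transcript lengths were not used here, so levels are compared between samples for 1 transcript and not between transcripts.

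The liver values that chose the members are given as a description, without a test. In the APAP-high set, A ran from 0.53 to 2.62 with a median of 1.39, and M from -2.92 to -0.54 with a median of -1.43. In the MDA-high set, A ran from -3.65 to -0.52 with a median of -1.39, and M from 0.51 to 5.80 with a median of 1.36. By construction, both medians over all kept transcripts were 0. The last transcript admitted had A of 1.38 and M of -0.74, a distance of 2.12. The first one left out by the limit of 100 had A of -1.43 and M of 0.69, also 2.12 apart. One transcript with M of -2.83 was left out because its A was 0.4964, just under 0.5.

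**Figure D1:**
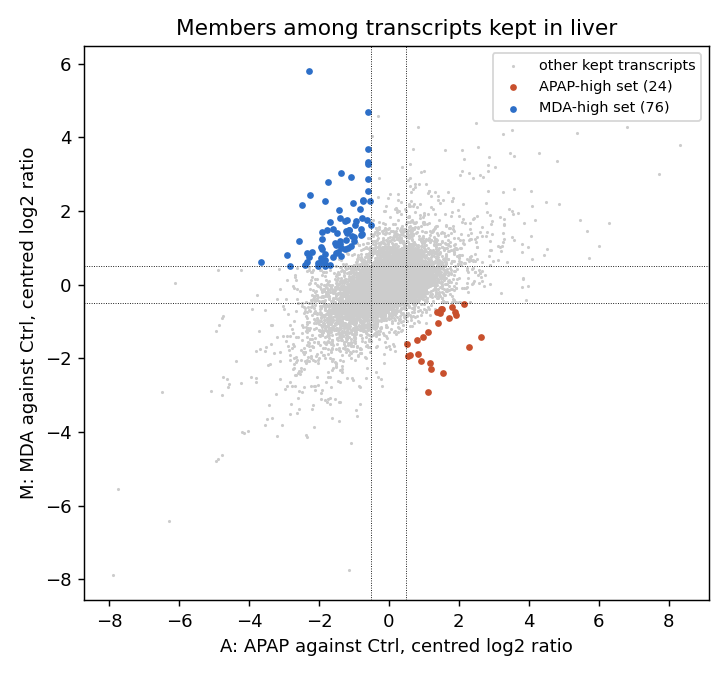
Centred log2 ratios of 13482 transcripts kept in liver, APAP against Ctrl on the x axis (A) and MDA against Ctrl on the y axis (M), on the log2(mean CPM + 1) scale. Grey points are other kept transcripts, coloured points are the 24 APAP-high and 76 MDA-high members, and dotted lines mark 0.5 and -0.5. The MDA-high members reach further from the origin, up to M of 5.80.

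The centring mattered for part of the members. Before it, the median kept transcript stood 0.61 higher in APAP livers than in Ctrl livers and 0.46 higher in MDA livers, on the log2 scale. Without the subtraction, A and M still had opposite signs in 92 of the 100 members, in 24 of 24 of the APAP-high set and 68 of 76 of the MDA-high set. Of the other 8, 6 were listed at 0 in every Ctrl and every APAP liver, so that their uncentred A was 0, and 2 had an uncentred A slightly above 0. Both thresholds of 0.5 were met without centring by 67 members, 15 in the APAP-high and 52 in the MDA-high set. With libraries rescaled by the trimmed mean of M-values (TMM), 78 of the 100 members met the thresholds, 16 in the APAP-high and 62 in the MDA-high set. The medians subtracted there were 0.04 for A and 0.02 for M, so the offset before centring depends on the scaling. On the uncentred CPM scale, the MDA side was the weaker one in the APAP-high set. There 9 of 24 members had an uncentred M above -0.5, from -0.44 to -0.08. On the same scale the APAP side was the weaker one in the MDA-high set, where 24 of 76 members had an uncentred A above -0.5. This order did not hold in edgeR fits with TMM scaling, which do not add 1 CPM. Median log2 fold changes there were 1.87 after APAP and -2.19 after MDA in the APAP-high set. In the MDA-high set they were -1.95 after APAP and 1.49 after MDA.

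Within single livers the sets stayed apart. The median of the APAP-high set, as a log2 ratio to the control mean centred within each liver, was 1.34 ± 0.17 in APAP livers (SD, n = 5, range 1.14 to 1.598), -0.04 ± 0.13 in Ctrl livers and -1.40 ± 0.38 in MDA livers (-1.85 to -0.94). The median of the MDA-high set was -1.44 ± 0.22 in APAP livers (-1.73 to -1.16), 0.01 ± 0.16 in Ctrl livers and 1.26 ± 0.11 in MDA livers (1.14 to 1.38). No liver of one treatment reached the range of another in either set, a separation that the choice of members fixes. The spread between replicate livers was given by the SD of each transcript within a group. In the APAP-high set the median SD of log2(CPM + 1) was 0.62 in Ctrl livers, 0.56 in APAP livers and 0.30 in MDA livers, where all kept transcripts had 0.32, 0.30 and 0.26. In the MDA-high set the corresponding medians were 0.37 in Ctrl, 0.41 in APAP and 0.44 in MDA livers.

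**Figure D2:**
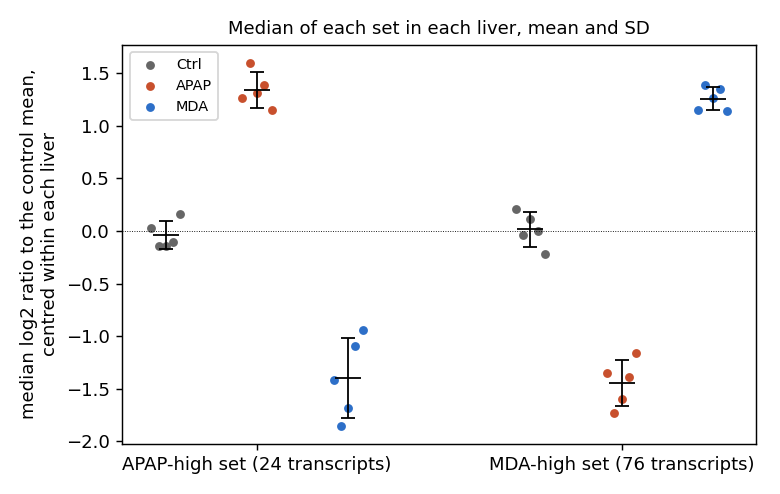
Median log2 ratio to the control mean over the 24 APAP-high and the 76 MDA-high transcripts in each of 15 livers, centred within each liver (y axis). Points are livers, bars are the mean and SD of 5 livers. APAP and MDA livers lie on opposite sides of the Ctrl livers in both sets, with APAP-high medians of 1.14 to 1.598 after APAP and -1.85 to -0.94 after MDA.

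Counting members whose livers did not overlap between groups, before centring, gave an uneven picture of the sets. All 5 APAP livers lay above all 5 Ctrl livers in 19 of the 24 APAP-high members, where 40.6% of all kept transcripts did so. All 5 MDA livers lay below all Ctrl livers in 5 of the 24, against 2.81% of kept transcripts. In the MDA-high set, all MDA livers lay above all Ctrl livers in 60 of 76 members, against 28.8% of kept transcripts, and all APAP livers below all Ctrl livers in 28, against 4.45%. Both separations, on opposite sides of the controls, held in 5 APAP-high members (0.126% of kept transcripts) and 26 MDA-high members (0.46%), 31 in all against 0.586%. APAP livers lay entirely above MDA livers in 20 APAP-high members (15.4% of kept transcripts) and entirely below them in 67 MDA-high members (8.82%), 87 members in all against 24.2% of kept transcripts. Since the members were chosen on these livers, nothing is read from these shares.

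Calls by edgeR's quasi-likelihood method with TMM scaling were counted in the same livers. Because the members were chosen on these livers, the choice itself raises their calls above the shares over all transcripts, and the counts are a description and no test of the members. At an adjusted p under 0.05 it called 14 of the 24 APAP-high members higher after APAP (20.3% of all tested transcripts were called so) and 13 lower after MDA (11.3%), with 7 called on both sides (0.312%). It called 56 of the 76 MDA-high members lower after APAP (20.5%) and 49 higher after MDA (10.6%), with 39 called on both sides (0.808%). Both treated groups were compared with the same 5 Ctrl livers.

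Levels of the members in control livers were mostly low. The control mean had a median of 2.73 CPM in the APAP-high set (0.213 to 1048) and 7.47 CPM in the MDA-high set (0 to 942). It was under 1 CPM in 21 members and at least 100 CPM in 9. Every Ctrl liver was listed at 0 in 6 members, every APAP liver in 9, all of them MDA-high, and every MDA liver in 4, all of them APAP-high. For these A and M depend on the 1 CPM that was added and measure no fold, which includes the lowest M of the APAP-high set, -2.92. In 8 members, 3 APAP-high and 5 MDA-high, a single liver held at least 50% of the sum of the treated group in which the transcript was high, and in 3 MDA-high members it held 100%. When each of the 15 livers was left out in turn, 73 members met the thresholds every time (15 APAP-high and 58 MDA-high) and 27 failed at least once.

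The APAP-high transcript furthest apart was ENSRNOT00000011163. Its level was 1.70, 1.57, 0.748, 1.88 and 4.60 CPM in the Ctrl livers, 29.2, 53.2, 20.0, 28.3 and 10.0 CPM in the APAP livers, and 0.219, 0.278, 0.312, 0.913 and 1.18 CPM in the MDA livers. All APAP livers were above all Ctrl livers, while the highest MDA livers reached into the Ctrl range. A was 2.62 and M was -1.43. The rank 3 transcript of the same set had nearly the same profile, with group means of 2.72, 27.0 and 0.578 CPM in Ctrl, APAP and MDA livers. Over the 46 samples that are not liver, the log2(CPM + 1) values of these 2 transcripts had a Pearson r of 0.96, and over the 15 livers 0.98, as a description. Whether they are transcripts of one gene or near-identical copies that share reads was not tested, so the split of counts between them is uncertain.

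The second named APAP-high transcript, ENSRNOT00000087532, switched between 0 and about 20 CPM or more. It was listed at 0 in 4 Ctrl livers and at 22.5 CPM in replicate 2. The APAP livers held 0, 44.4, 0, 21.0 and 21.0 CPM, and all 5 MDA livers were listed at 0. The groups overlapped, since each held at least 2 livers at 0. The same pattern appeared outside liver, with 72.9, 16.4 and 18.3 CPM in 3 NK cell samples and 0 in the other 3. The transcript held 18.9 and 35.0 CPM in 2 CD4 T cell samples and 36.7 and 16.9 CPM in 2 neutrophil samples. The other samples of these types were at 0, as were all B cell, CD8 T cell, monocyte and WBC samples. With values that are either 0 or high within 1 group, the group mean of this transcript depends on which samples it holds.

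Further APAP-high members were picked after their values were seen, to show other kinds of profile. Rank 4 held 4.13, 3.86, 1.87, 2.55 and 10.9 CPM in Ctrl livers, 19.6, 15.8, 22.4, 32.5 and 30.3 CPM in APAP livers, and 0.465, 0.0496, 0.844, 0.404 and 0.606 CPM in MDA livers. The 3 groups did not overlap, and this transcript was listed at 0 in all 46 samples of spleen, blood and sorted cells. Rank 13 had the highest control mean in CPM of its set, a value not scaled for length, with 2095, 1026, 927, 750.0 and 443 CPM in Ctrl livers, 2225, 2175, 1101, 3945 and 2747 CPM in APAP livers, and 299, 317, 336, 459 and 501 CPM in MDA livers. Its Ctrl livers overlapped both treated groups, and outside liver it was listed above 0 in 1 neutrophil sample only, at 0.192 CPM. Rank 5 held 15.8, 52.97, 109, 49.6 and 39.1 CPM in Ctrl livers, 192, 189, 128, 273 and 166 CPM in APAP livers, and 10.9, 18.4, 13.4, 15.0 and 13.4 CPM in MDA livers. All APAP livers were above the Ctrl livers, while the highest MDA liver reached into the Ctrl range. Rank 5 was also found in every sorted cell type. It held 294 ± 6.07 CPM in monocytes and 197 ± 23.6 CPM in neutrophils (SD, n = 6), and 57.1 to 67.4 CPM on average in the lymphoid types.

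The MDA-high transcript furthest apart was ENSRNOT00000079036, which had the largest distance between A and M of all 100 members. Its level was 13.1, 7.52, 9.14, 6.46 and 6.17 CPM in Ctrl livers, 1.83, 1.14, 1.31, 1.92 and 3.69 CPM in APAP livers, and 423, 782, 607, 1349 and 457 CPM in MDA livers. The 3 groups did not overlap. A was -2.28 and M was 5.80. Outside liver it was listed above 0 in 1 of 46 samples, a neutrophil sample at 0.0582 CPM.

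The second named MDA-high transcript, ENSRNOT00000076002, owed its place to 1 liver. It was listed at 0 in 60 of the 61 samples and at 172 CPM in MDA replicate 5. Its A of -0.61 was the median subtracted from every transcript, since both the Ctrl and the APAP livers were at 0. Without centring it no longer met the thresholds.

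**Figure D3:**
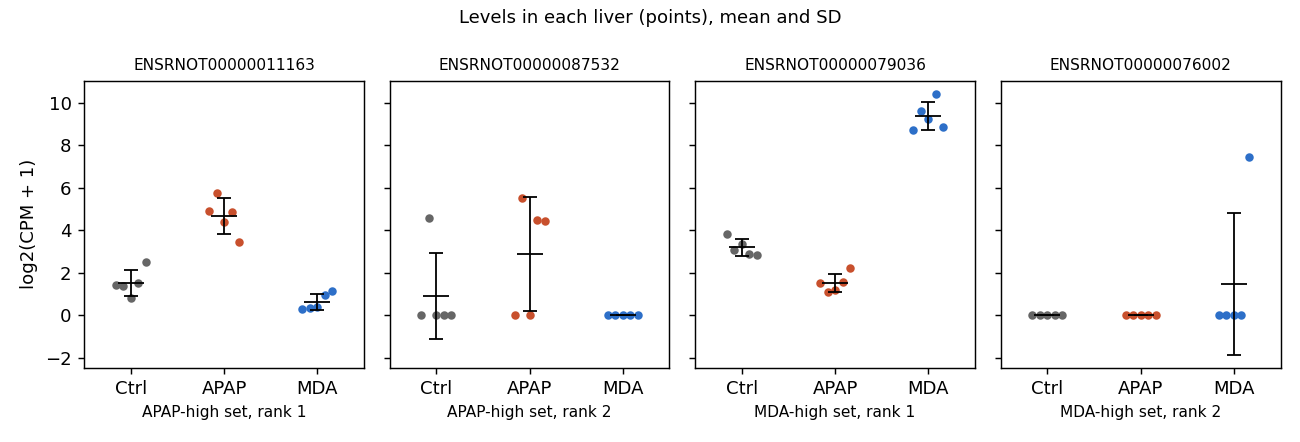
Levels of the 4 named transcripts as log2(CPM + 1) in each of 5 Ctrl, 5 APAP and 5 MDA livers (points), with the mean and SD of each group (bars). ENSRNOT00000011163 and ENSRNOT00000079036 have treated groups on opposite sides of Ctrl on average, ENSRNOT00000087532 is at 0 or above 4 in every liver, and ENSRNOT00000076002 is above 0 in 1 MDA liver.

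Other MDA-high members, again picked after their values were seen, showed steadier profiles. Rank 3 held 17.5, 12.5, 16.2, 14.4 and 21.3 CPM in Ctrl livers, 4.64, 4.45, 8.34, 2.44 and 2.84 CPM in APAP livers, and 80.6, 175, 120, 179 and 84.0 CPM in MDA livers. Rank 4 held 82.2, 135, 102, 186 and 149 CPM in Ctrl livers, 30.7, 27.6, 40.1, 28.4 and 49.0 CPM in APAP livers, and 701, 993, 817, 533 and 990 CPM in MDA livers. In both, the 3 groups did not overlap. Rank 8 had the lowest A of all members, -3.65, with 19.4, 30.2, 31.8, 25.1 and 23.1 CPM in Ctrl livers, 2.15, 1.36, 1.49, 2.30 and 4.06 CPM in APAP livers, and 50.6, 62.2, 49.9, 60.9 and 55.3 CPM in MDA livers. Here too the groups did not overlap. Rank 22 had the highest control mean in CPM of its set, with 1014, 1090, 757, 968 and 878 CPM in Ctrl livers, 762, 262, 450, 476 and 795 CPM in APAP livers, and 4988, 5283, 5040, 4193 and 3309 CPM in MDA livers. Its APAP livers reached into the Ctrl range, while its MDA livers were all above it.

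The sorted cells, spleens and blood samples took no part in choosing the members. Of the 100, 51 reached a mean of 1 CPM in at least 1 of the 6 sorted cell types, where 86.9% of all transcripts kept in liver did. Detected in this sense were 18 of 24 APAP-high members (75.0%) and 33 of 76 MDA-high members (43.4%). In the other direction, 19 members were listed at 0 in all 46 samples that are not liver, 2 APAP-high (8.33%) and 17 MDA-high (22.4%), where 2.82% of the kept transcripts were. An estimated count of 0 says only that no read was assigned, at totals of up to 13587693 in these 46 libraries. Those 17 MDA-high transcripts had control means of 0 to 699 CPM and MDA means of 6.24 to 1436 CPM. No test was made of these shares, because the level a transcript has in liver was part of its selection.

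**Figure D4:**
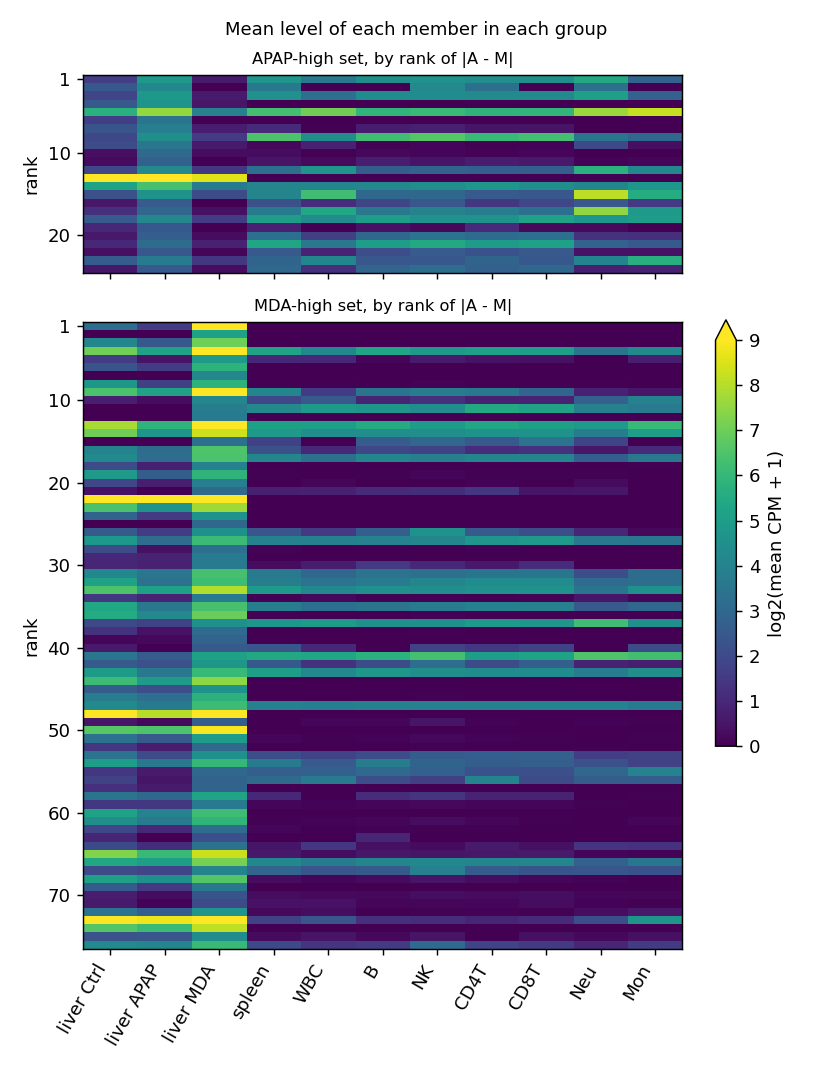
Mean level of each of the 100 members, as log2(mean CPM + 1) by colour, in the 3 liver groups, spleen, WBC and 6 sorted cell types (columns), with the APAP-high set above and the MDA-high set below, each by rank (rows). Colours stop at 9. Of the 76 MDA-high members 43 stay under 1 CPM in every sorted cell type, against 6 of the 24 APAP-high members.

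The highest mean of the 18 detected APAP-high members lay in neutrophils for 7, in NK cells for 6, and in CD4 T cells or monocytes for 2 each. It lay in CD8 T cells for 1 and in B cells for 0. The 33 detected MDA-high members ranged from 4 highest in neutrophils to 7 highest in NK cells. Of all detected transcripts kept in liver, 14.1% were highest in neutrophils, 19.8% in NK cells, 26.8% in monocytes, 18.2% in CD4 T cells, 13.3% in CD8 T cells and 7.76% in B cells.

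A transcript was called specific to a cell type when edgeR's quasi-likelihood test found it higher than in each of the other 5 types at an adjusted p under 0.05. Of 45 members tested in the sorted cells, 17 were specific to 1 type, where 26.7% of all 14172 tested transcripts were. Of them, 8 were neutrophil-specific (15.4% of all tested), 4 monocyte-specific (7.25%), 3 NK cell-specific (1.93%), 1 B cell-specific (1.64%), 1 CD4 T cell-specific (0.31%) and 0 CD8 T cell-specific (0.134%). In the APAP-high set, 5 of 16 tested members were neutrophil-specific and 1 was monocyte-specific. In the MDA-high set, 11 of 29 were specific to a type, with 3 each for neutrophils, monocytes and NK cells. Without TMM scaling, as with limma, the MDA-high set held 1 neutrophil-specific member in place of 3, and the APAP-high set held 5 as before. Over all tested transcripts neutrophil-specific ones then numbered 1006 (1022 with limma) in place of 2184 and monocyte-specific ones 1559 (1680) in place of 1028, so the background moved as well.

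The 5 neutrophil-specific APAP-high members were ranks 1, 3, 12, 15 and 17. Their means in neutrophils ran from 32.4 to 271 CPM, against 6.05 to 46.8 CPM in monocytes and 6.29 to 22.3 CPM in NK cells. In the livers, group means ran from 1.34 to 3.65 CPM in Ctrl, 6.80 to 28.1 CPM after APAP and 0.312 to 3.16 CPM after MDA. All 5 had APAP livers entirely above the Ctrl livers (40.6% of kept transcripts), and none had MDA livers entirely below them (2.81%). In the whole APAP-high set these were 19 and 5 of 24 members. ENSRNOT00000011163 held 41.7 ± 8.09 CPM in neutrophils and 6.25 ± 1.85 CPM in monocytes (SD, n = 6), with 20.3 to 22.3 CPM on average in the 4 lymphoid types. Rank 15 held 202 to 365 CPM over 6 neutrophil samples (median 268), 35.9 to 56.4 CPM in monocytes and at most 10.6 CPM in any lymphoid sample. In the livers, rank 15 held 3.32, 3.08, 3.64, 4.43 and 3.78 CPM after vehicle, 23.2, 15.5, 36.03, 26.6 and 18.3 CPM after APAP, and 2.02, 2.13, 4.27, 4.25 and 3.13 CPM after MDA. Its MDA livers overlapped the Ctrl livers and its centred M was -0.62, the uncentred value being -0.16.

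The whole lists of cell type-specific transcripts were summed in the livers beside these values. The 2184 neutrophil-specific transcripts, of which 1898 were kept in liver and 8 are members, summed to 117258 to 126993 CPM in Ctrl, 127557 to 143520 CPM in APAP and 143496 to 161048 CPM in MDA livers. Of them, 57 were listed at 0 in every Ctrl liver, 34 in every APAP liver and 50 in every MDA liver. With the 1006 transcripts called without TMM, an alternative added after seeing the data, the ranges were 38980 to 42129 CPM in Ctrl, 56241 to 63939 CPM in APAP and 53608 to 68923 CPM in MDA livers. These sums are CPM without the centring used for A and M. Before centring, the median kept transcript stood 1.53 times its Ctrl level in APAP livers and 1.37 times in MDA livers, after adding 1 CPM. With TMM scaling these medians were 0.04 and 0.02 on the log2 scale. On the uncentred scale neither version of the list lay below the Ctrl livers after MDA, and a centred version was not computed.

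The 1028 monocyte-specific transcripts, of which 882 were kept and 4 are members, summed to 20902 to 27021 CPM in Ctrl, 29051 to 33343 CPM in APAP and 28426 to 34032 CPM in MDA livers. The 274 NK cell-specific transcripts, 3 of them members, summed to 4789 to 4945 CPM in Ctrl, 5200 to 5875 CPM in APAP and 5646 to 6326 CPM in MDA livers. The 44 CD4 T cell-specific ones, 1 of them a member, summed to 1094 to 1635 CPM in Ctrl, 1676 to 2305 CPM in APAP and 1532 to 2157 CPM in MDA livers. Only the short CD8 T cell list, 19 transcripts with 0 members, had APAP livers above all others, at 284 to 390 CPM against 85.1 to 149 CPM in Ctrl and 177 to 253 CPM in MDA livers. The 233 B cell-specific transcripts, 1 of them a member, overlapped between all groups, at 2483 to 4532 CPM in Ctrl, 2736 to 3417 CPM in APAP and 3027 to 3927 CPM in MDA livers. Like the neutrophil sums, all sums given here are uncentred. On that scale the median kept transcript stood 1.53 times its Ctrl level after APAP and 1.37 times after MDA. The lists were called among the sorted cells alone, so liver cells may hold the same transcripts. The part of leukocyte RNA in the members' liver values was not tested.

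Another 5 APAP-high members, ranks 8, 20, 21, 22 and 24, had their highest mean in NK cells and their lowest pair of means in neutrophils and monocytes, a grouping made after the values were seen. None was called specific to 1 type. Each lymphoid type, not NK cells alone, stood above both myeloid types in all 5 members. Rank 8 held 64.3 to 122 CPM in NK cells, 51.8 to 108 CPM in CD8 T cells, 52.9 to 90.3 CPM in B cells and 43.8 to 85.4 CPM in CD4 T cells. Its NK cell samples thus overlapped those of the other lymphoid types. In neutrophils it held 5.26 to 13.4 CPM and in monocytes 2.32 to 11.1 CPM. Among all detected transcripts kept in liver, 12.2% had this pattern, and 39.2% had both myeloid types lowest. In livers rank 8 held 2.68, 4.59, 0, 1.03 and 6.14 CPM after vehicle, 20.9, 35.3, 26.4, 11.2 and 12.5 CPM after APAP, and 3.00, 0, 0.885, 1.15 and 5.07 CPM after MDA. As in the other 4, the APAP livers were all above the Ctrl livers and the MDA livers overlapped them. Uncentred M was -0.36 to -0.20 over the 5 transcripts. Of all kept transcripts, 40.6% had APAP livers entirely above the Ctrl livers.

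The 11 MDA-high members specific to a cell type were also found in other types or in liver. Rank 73, specific to monocytes, held 24.1 ± 2.63 CPM there and at most 3.42 CPM on average in the other types, while its liver means were 489 CPM in Ctrl, 431 CPM in APAP and 1708 CPM in MDA livers. Rank 10, also monocyte-specific, held 14.6 ± 1.49 CPM in monocytes, 5.79 ± 1.32 CPM in neutrophils and 16.9 ± 5.00 CPM in MDA livers, against 0.706 ± 0.444 CPM in Ctrl livers. Rank 54, the B cell-specific one, held 12.97 CPM on average in B cells, 31.3 ± 7.50 CPM in Ctrl livers, 11.1 ± 5.30 CPM after APAP and 62.5 ± 9.95 CPM after MDA. Over the 11, MDA livers lay entirely above Ctrl livers in 10 (28.8% of kept transcripts) and APAP livers entirely below them in 5 (4.45%). In the whole MDA-high set these were 60 and 28 of 76 members, and nothing is read from these counts.

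Spleen and WBC differ in immune cell makeup, and a comparison between them asks where the members lie among untreated immune tissues. Of the 100 members, 47 had a mean of at least 1 CPM over these 10 samples and were tested with edgeR's quasi-likelihood test among 13885 transcripts. At an adjusted p under 0.05, 21 were higher in spleen (22.7% of all tested transcripts were) and 10 were lower (23.9%). Among tested transcripts that were also kept in liver the shares were 22.6% and 24.6%. The median log2 fold change, spleen minus WBC, was 0.53 over the 47 members and 0.02 over all tested transcripts. Without TMM the members' counts were 23 higher and 9 lower with a median of 0.69, while 35.2% of all tested transcripts were higher and 14.7% lower with a median of 0.18. In the APAP-high set, 7 of 16 tested members were higher in spleen and 5 lower, with a median of 1.08. In the MDA-high set, 14 of 31 were higher and 5 lower, with a median of 0.37. The other 53 members did not reach this level in spleen and blood, and the tested ones are not all members.

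Within the APAP-high set this comparison was read by sorted cell pattern. The 5 members with their highest mean in NK cells and lowest in myeloid cells were all higher in spleen, where 22.7% of all tested transcripts were. That direction is nearly built into the grouping, which was made after the values were seen. NK cells were sorted from spleen and both myeloid types from blood. How many of all transcripts with this pattern, or of all neutrophil-specific ones, were higher or lower in spleen was not counted. Rank 22 had the largest log2 fold change of the 5 members, 2.28 ± 0.25 (SE; adjusted p = 4.6e-05 by edgeR). It held 3.79 to 5.29 CPM in 5 spleens and 0.440 to 1.14 CPM in 5 WBC samples. Each SE of a fold change is back-calculated, as the absolute log2 fold change over the square root of edgeR's F statistic. Rank 8 followed the same direction with 1.91 ± 0.46 (edgeR adjusted p = 0.0066), and its samples did not overlap, at 76.6 to 115 CPM in spleen and 3.20 to 41.8 CPM in WBC. Of the 5 neutrophil-specific members, 3 were lower in spleen, where 23.9% of all tested transcripts were. Rank 15 was the lowest of them at -2.37 ± 0.24 (edgeR adjusted p = 3.4e-05), from 11.9 to 20.5 CPM in spleen and 49.9 to 131 CPM in WBC. The other 2 neutrophil-specific members, ENSRNOT00000011163 and its near twin at rank 3, were higher in spleen. For ENSRNOT00000011163 the spleens held 28.7, 33.3, 21.2, 23.5 and 21.3 CPM and the WBC samples 8.77, 13.96, 14.06, 8.69 and 12.5 CPM, a log2 fold change of 0.98 ± 0.16 (edgeR adjusted p = 0.0006).

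ENSRNOT00000087532 reached 39.4 and 18.4 CPM in 2 spleens and was listed at 0 in the other 3 and in all WBC samples, and it did not pass (edgeR adjusted p = 0.071). Rank 5, highest in monocytes, was lower in spleen by a log2 fold change of -0.91 ± 0.06 (edgeR adjusted p = 6.5e-06), with 71.7 to 81.8 CPM in spleen and 106 to 160 CPM in WBC.

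Among the MDA-high members, rank 9 had the largest log2 fold change of those that passed, 2.85 ± 0.29 (edgeR adjusted p = 3.2e-05). It held 18.3, 17.4, 16.8, 17.3 and 13.3 CPM in spleen and 2.40, 2.20, 0.458, 2.04 and 2.93 CPM in WBC. In the livers it held 81.0, 88.2, 66.6, 104 and 80.8 CPM after vehicle, 33.5, 4.81, 26.5, 37.1 and 76.2 CPM after APAP, and 648, 688, 624, 276 and 556 CPM after MDA. One APAP liver lay within the Ctrl range and every MDA liver above it. Rank 4 was higher in spleen by 0.94 ± 0.08 (edgeR adjusted p = 1.6e-05), with 33.9 to 40.5 CPM in spleen and 15.1 to 20.2 CPM in WBC. Rank 64 was the lowest, at -2.17 ± 0.41 (edgeR adjusted p = 0.0016), with means of 0.433 CPM in spleen and 1.77 CPM in WBC.

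**Figure D5:**
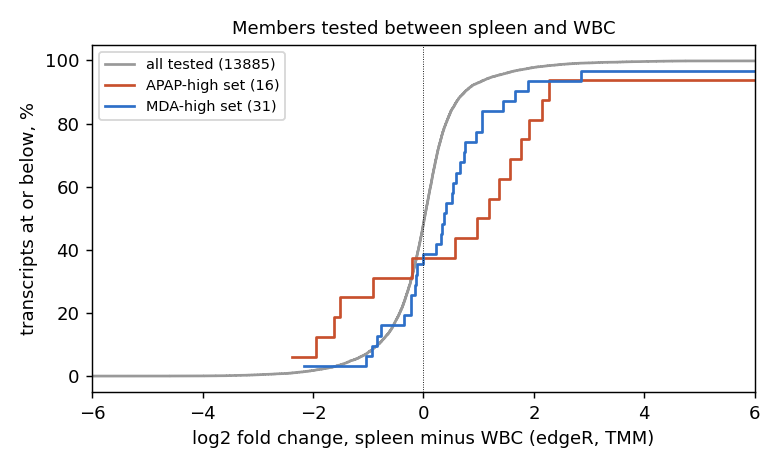
Cumulative share of transcripts (y axis, %) at or below each log2 fold change of spleen minus WBC (x axis, edgeR with TMM scaling) for all 13885 tested transcripts, 16 APAP-high members and 31 MDA-high members. Both member curves run to the right of the grey curve above 0, with medians of 1.08 and 0.37 against 0.02, and the x axis stops at -6 and 6.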

How the data were processed

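RNA was sequenced from 61 rat samples, and each column was assigned to its sample by name, with 0 left unassigned. Per the methods, the authors quantified transcripts with Salmon 1.6.0 on Ensembl rat cDNA of Rnor_6.0 and imported them with tximport in R 4.1.3. The labels name another rat assembly as well, and which one the values rest on was not settled. The methods name TPM, but the deposited values sum to 3429971 to 14146402 per sample and were used as estimated counts. Whether transcript length is still in them was not tested. The members and lists were chosen with earlier results of these data known. CPM was the value over the column sum times 1000000. Counts rounded to whole numbers were tested with edgeR 4.0.16 (quasi-likelihood, TMM, Benjamini-Hochberg threshold 0.05) on transcripts whose mean reached 1 CPM, in separate fits for 15 livers, 10 spleen and WBC samples and 36 sorted samples. limma 3.58.1 and DESeq2 1.42.0 served as alternatives. Named transcripts were the 2 members with the largest and the 2 with the smallest A minus M. The tests were tried on simulated data. Replicate numbers were not used to pair samples in the main fits. Correlations of deviations over 0.1 were reached by 3 of 15 same-numbered pairs in livers, 0 of 5 in spleen and WBC and 24 of 90 in sorted cells. Among the cells sorted from spleen alone 21 of 36 pairs reached it, so the specificity tests may leave out a pairing there. Fits with the replicate number as a block are given below. The labels do not tie samples to animals, so p-values measure the spread between these samples.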

Additional observations from a re-analysis of the deposited data

Results flagged for a closer look

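Of 75 groups of 5 or 6 samples examined for the transcripts shown, 5 held a sample far from the others. No chance rate is set beside this count, since groups with most samples at 0 are among them. ENSRNOT00000011163 stood at 57.9 CPM in neutrophil replicate 6, against 36.9 to 41.3 CPM in the other 5 samples. ENSRNOT00000087532 stood at 72.9 CPM in NK replicate 2 and, in the Ctrl livers, at 22.5 CPM in replicate 2 with the other 4 at 0. ENSRNOT00000076002 stood at 172.0 CPM in MDA liver replicate 5 with the other 4 at 0. The APAP-high transcript of rank 4 stood at 10.9 CPM in Ctrl liver replicate 5, against 1.87 to 4.13 CPM in the other 4. What set these samples apart was not tested.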

How the results depend on the processing

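The number of transcripts meeting both thresholds, 243, moved most with the settings of the rule. It was 113 with a pseudocount of 5 CPM, 112 with a minimum mean of 10 CPM and 43 with a threshold of 1. For the APAP-high direction (73) the counts were 131 with a pseudocount of 0.1 CPM, then 23, 22 and 9 under those 3 settings, and for the MDA-high direction (170) they were 90, 90 and 34. TMM scaling gave 194, TMM scaling without centring, an alternative chosen after seeing the data, 197, and leaving out single livers 234 to 275. With group medians M of ENSRNOT00000076002 became -0.47, because 4 of its 5 MDA livers are at 0. Without TMM, APAP-high members called on both sides in the livers numbered 12, and the share over all transcripts was not counted for that setting. The median log2 fold change of spleen minus WBC without TMM was 0.69 over the members tested and 0.53 in the MDA-high set (0.50 with limma). The median of all tested transcripts moved from 0.02 to 0.18 (0.16 with limma). Among the sorted cells, B cell-specific members ranged from 0 (without replicate 2) to 2 (without replicate 3) in all and in the MDA-high set when single replicate numbers were left out. Over all tested transcripts B cell-specific ones then ranged from 81 (without replicate 2) to 295 (without replicate 5), against 233. Without replicate 3 they numbered 176. Monocyte-specific APAP-high members were 2 with limma, without TMM, without a filter and with the replicate block, and 1 to 2 with single replicate numbers left out (2 without replicate 2, 4 or 5). Over all tested transcripts monocyte-specific ones numbered 1680 with limma, 1559 without TMM, 1044 without a filter and 1079 with the block, against 1028. Neutrophil-specific MDA-high members were 1 with limma and without TMM, where all tested transcripts held 1022 and 1006 neutrophil-specific ones in place of 2184. With the replicate number as a block, 21 members were higher and 9 lower in spleen, against 20.0% and 21.5% of all tested transcripts. In the livers 9 APAP-high and 36 MDA-high members were then called on both sides, and the share over all transcripts was not counted for that setting. Among the sorted cells 19 members were specific to a cell type with the block, where 3952 of all 14172 tested transcripts were. Same-numbered samples had a mean correlation of deviations of -0.0009 in livers, 0.012 in spleen and WBC and 0.057 in sorted cells. Among the cells sorted from spleen it was 0.17, with 21 of 36 pairs over 0.1 and 18 of 24 samples correlating best with their own number, a hint from the data that the labels do not state. Of 564 recomputed counts and medians, 27 moved past the tolerance set for them (1.5 times for a count), and those are the ones given here. Counts of 0 and levels under 1 CPM limit what can be said of the members that are near absent outside liver.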
